A study of Schizosaccharomyces pombe with 12 samples.

Results

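The 9 genes described here are a chosen part of the heat shock protein and chaperone genes of fission yeast. Others, such as *hsp20* and *hsp10*, are in a further list below. The 9 include the disaggregases *hsp104* and *hsp78*, the small heat shock protein *hsp16*, and *hsp9* of the Hsp9/Hsp12 family. The rest are the Hsp70 proteins *ssa1*, *ssa2* and *sks2*, the Hsp90 protein *hsp90* (also called *swo1*), and the heat shock transcription factor *hsf1*. The rule that picks the 9 uses gene names and no measured value, though the list was drawn up with earlier results of these data known. All 9 of 9 were found, each on 1 probe set of the 4875 fission yeast probe sets on the array. The question asked of them was whether a low dose of the actin drug latrunculin A (LatA) and the loss of serine 2 from the RNA polymerase II C-terminal domain (CTD) moved their transcripts.

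Chaperones bind unfolded proteins and help them to fold, to refold after damage, or to be pulled out of aggregates. Disaggregases of the Hsp104 class work together with Hsp70 on aggregated protein. The ATP cycle of Hsp70 is started by J proteins and reset by nucleotide exchange factors. Hsp90 receives a narrower set of clients from Hsp70 with the help of co-chaperones. Small heat shock proteins hold unfolded protein without using ATP. In yeasts, heat shock factor binds the promoters of many of these genes and raises their transcription when unfolded protein accumulates, while the general stress pathway acts on others.

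Expression was measured on 12 Affymetrix Yeast Genome 2.0 arrays, 3 biological replicates in each of 4 groups. Both *Schizosaccharomyces pombe* strains carried an *rpb1* gene, encoding the largest polymerase II subunit, whose CTD was cut to 12 heptad repeats, fewer than in the native gene. In *rpb1-12XCTD* the repeats were of normal sequence, and in *rpb1-12XS2ACTD* alanine replaced the serine at the second position of all 12. Each strain was treated for 3 h with the solvent DMSO or with 0.5 µM LatA, which sequesters actin monomers, at a dose too low to remove the actin cytoskeleton. Both strains were grown in rich medium, heat was not among the treatments, and no array measured a native-length CTD. A genotype was 1 strain, and RNA came from whole cultures, in which a change in every cell and a larger change in some of them cannot be told apart.

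The values are log2 signals that were centred for each probe set on its median over the 12 arrays. They therefore compare arrays for 1 gene, and say nothing of which gene was the more highly expressed. Over all probe sets the replicates of *rpb1-12XCTD* with DMSO varied most, with a median SD of 0.20, against 0.10 for *rpb1-12XS2ACTD* with DMSO and 0.068 and 0.078 for the *rpb1-12XCTD* and *rpb1-12XS2ACTD* arrays with LatA. Among the 9 genes the order was different, with a median SD of 0.29 for *rpb1-12XS2ACTD* with DMSO, 0.18 for both *rpb1-12XCTD* groups and 0.042 for *rpb1-12XS2ACTD* with LatA. The tests below share 1 estimate of spread per gene across the 4 groups, so an error can be too small or too large for a comparison whose 2 groups vary more or less than the rest. Across all probe sets the median difference between LatA and DMSO was 0.098 in *rpb1-12XCTD*, but -0.016 after quantile normalisation of the arrays, and in *rpb1-12XS2ACTD* it was -0.0086. The arrays read transcript amounts and not codons, and so offer no check of the strain labels.

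LatA treatment was accompanied by higher signal for 5 of the 9 genes in *rpb1-12XCTD*: *hsp104*, *hsp78* and *ssa1* by about 2.6-fold, *hsp16* by 1.95-fold and *hsp9* by 1.67-fold. In *rpb1-12XS2ACTD* 3 genes rose, *hsp104* by 2.85-fold, *hsp78* by 2.77-fold and *ssa1* by 2.72-fold. None of the 9 fell in either strain, where 2.58% and 5.37% of all probe sets fell. A gene was called where limma gave a Benjamini-Hochberg adjusted p, over all probe sets, under 0.05 and the fold change was over 1.5. By the same rule 10.6% of all probe sets were called up in *rpb1-12XCTD* and 6.13% in *rpb1-12XS2ACTD*. The median log2 difference of the 9 genes was 0.74 in *rpb1-12XCTD* and 0.45 in *rpb1-12XS2ACTD*, which lay 0.64 and 0.46 above the medians over all probe sets.

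**Figure D1:**
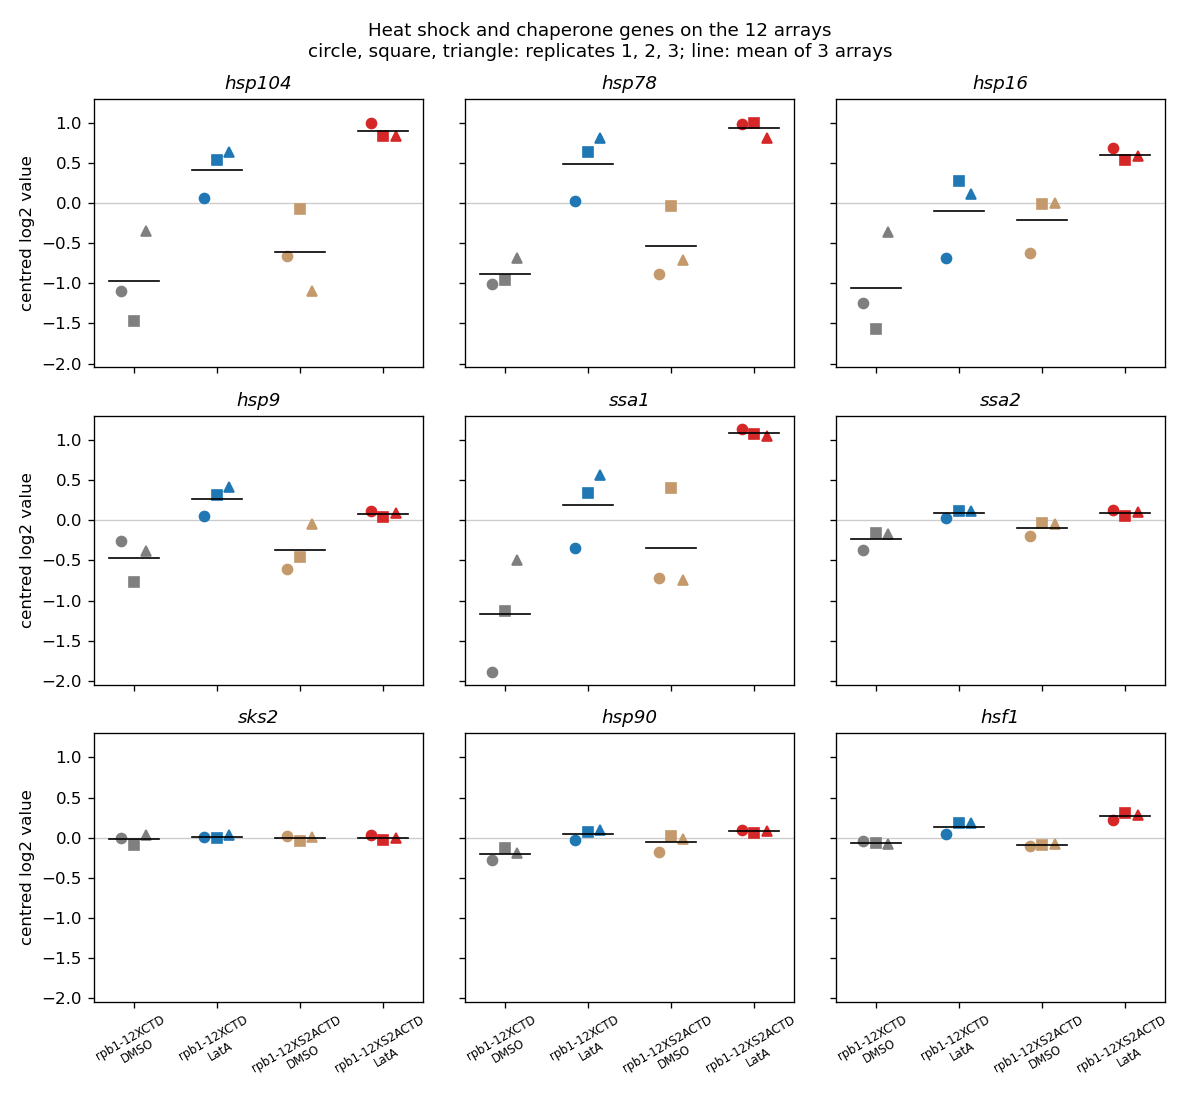
Centred log2 value (y axis) of each of the 9 genes on the 12 arrays, by strain and treatment (x axis), with a symbol for each replicate and a line at the mean of 3 arrays. For *hsp104*, *hsp78*, *hsp9*, *ssa2* and *hsf1* every LatA array lay above every DMSO array of either strain, while *sks2* stayed within -0.099 and 0.038 on all 12 arrays. The share of all probe sets placed like those genes was not computed.

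*hsp104*, the cytosolic disaggregase, read -1.09, -1.47 and -0.35 on *rpb1-12XCTD* replicates 1, 2 and 3 with DMSO, and 0.073, 0.54 and 0.64 on those with LatA. In *rpb1-12XS2ACTD* it read -0.66, -0.073 and -1.10 with DMSO and 1.01, 0.84 and 0.84 with LatA. The 6 LatA arrays were thus the 6 highest, and the LatA arrays of *rpb1-12XS2ACTD* were all above those of *rpb1-12XCTD*. The log2 difference between LatA and DMSO was 1.39 ± 0.29 (SE) in *rpb1-12XCTD* (adjusted p = 0.0041, limma) and 1.51 ± 0.29 in *rpb1-12XS2ACTD* (adjusted p = 0.0034, limma). Both calls held whichever 1 array was left out.

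The mitochondrial member of the same class, *hsp78*, followed a very similar course. Its values in *rpb1-12XCTD* were -1.003, -0.95 and -0.68 with DMSO and 0.027, 0.65 and 0.81 with LatA. The *rpb1-12XS2ACTD* arrays gave -0.88, -0.027 and -0.70 with DMSO, then 0.99, 1.00 and 0.82 with LatA. Again no LatA array overlapped a DMSO array, and replicate 1 of *rpb1-12XCTD* with LatA was the lowest of the treated arrays. The difference was 1.37 ± 0.23 in *rpb1-12XCTD* (adjusted p = 0.0012, limma) and 1.47 ± 0.23 in *rpb1-12XS2ACTD* (adjusted p = 0.0011, limma), and leaving out any 1 array ended neither call. Over the 12 arrays *hsp104* and *hsp78* correlated with r = 0.96, which includes the treatment difference that both share.

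*hsp16* and *hsp9* gave less uniform values. *hsp16*, of the alpha-crystallin family, read -1.25, -1.57 and -0.36 in *rpb1-12XCTD* with DMSO and -0.68, 0.28 and 0.12 with LatA, so that the 2 groups overlapped through DMSO replicate 3 and LatA replicate 1. In *rpb1-12XS2ACTD* the DMSO arrays read -0.62, -0.0090 and 0.0090, and the LatA arrays 0.69, 0.54 and 0.60, with no overlap. The LatA difference of 0.97 ± 0.31 in *rpb1-12XCTD* was called (adjusted p = 0.034, limma), but it was 0.54 after quantile normalisation (adjusted p = 0.137), the fit of these 2 groups alone gave adjusted p = 0.083, and leaving out DMSO replicate 1 or 2 or LatA replicate 2 or 3 of that strain gave 0.71 to 0.87, with adjusted p = 0.079 at the lowest and 0.130 at the highest. In *rpb1-12XS2ACTD* the difference was 0.82 ± 0.31 (adjusted p = 0.067, limma) and passed the test without *rpb1-12XCTD* DMSO replicate 3 or without *rpb1-12XCTD* LatA replicate 1, arrays that enter this difference only through the shared spread. It also passed with array weights, with its own 2 groups alone (adjusted p = 0.00992), after median centring (0.047) and after quantile normalisation (0.026).

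*hsp9*, related to Hsp12 of budding yeast and, like *hsp16*, in the list of core environmental stress genes that the study used, read -0.26, -0.77 and -0.39 in *rpb1-12XCTD* with DMSO. With LatA the 3 arrays of that strain read 0.060, 0.31 and 0.42, all higher. The corresponding values in *rpb1-12XS2ACTD* were -0.61, -0.45 and -0.045 with DMSO, and 0.11, 0.045 and 0.095 with LatA. Here too the treated arrays were the higher, but by a narrow margin from DMSO replicate 3. The difference was 0.74 ± 0.16 in *rpb1-12XCTD* (adjusted p = 0.0049, limma) and 0.45 ± 0.16 in *rpb1-12XS2ACTD*, where the p passed the threshold (adjusted p = 0.0497, limma) and the fold change of 1.37 did not. Without *rpb1-12XS2ACTD* DMSO replicate 3 the latter was 0.62 and was called. After quantile normalisation the *rpb1-12XCTD* difference was 0.57, just under the fold threshold. *hsp9* was the only one of the 5 genes called in *rpb1-12XCTD* whose mean with LatA was higher in that strain than in *rpb1-12XS2ACTD*, by 0.18 ± 0.16, with overlapping arrays.

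Of the 3 Hsp70 genes, *ssa1* varied most of all 9 genes and the others varied little. *ssa1*, a cytosolic Hsp70, read -1.90, -1.13 and -0.49 in *rpb1-12XCTD* with DMSO and -0.34, 0.34 and 0.57 with LatA. The *rpb1-12XS2ACTD* arrays read -0.72, 0.40 and -0.74 with DMSO and 1.15, 1.08 and 1.05 with LatA. Each strain's treated arrays were above its own DMSO arrays, and the treated *rpb1-12XS2ACTD* arrays lay within 0.10 of each other. LatA differences were 1.36 ± 0.38 in *rpb1-12XCTD* (adjusted p = 0.016, limma) and 1.44 ± 0.38 in *rpb1-12XS2ACTD* (adjusted p = 0.014, limma). The first was no longer called without *rpb1-12XCTD* LatA replicate 2 or 3 (1.28 and 1.17, adjusted p = 0.059 and 0.065), nor the second without *rpb1-12XS2ACTD* DMSO replicate 3 (1.25, adjusted p = 0.051).

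*ssa2*, the close paralogue of *ssa1*, read -0.36, -0.16 and -0.17 in *rpb1-12XCTD* with DMSO and 0.028, 0.12 and 0.11 with LatA. In *rpb1-12XS2ACTD* it read -0.19, -0.028 and -0.050, and then 0.13, 0.060 and 0.11. Treated and untreated arrays of a strain did not overlap, yet the differences were small: 0.32 ± 0.077 in *rpb1-12XCTD*, with adjusted p = 0.0082 (limma) and a fold change of 1.25, and 0.19 ± 0.077 in *rpb1-12XS2ACTD* (adjusted p = 0.079, limma). The third Hsp70, *sks2*, which works on ribosomes with newly made chains, ranged only from -0.099 to 0.038 over the 12 arrays, and its groups overlapped throughout. Its LatA difference was 0.033 in *rpb1-12XCTD* (95% interval -0.10 to 0.17) and turned to -0.061 after median centring and -0.071 after quantile normalisation. In *rpb1-12XS2ACTD* that difference was 0.0048 (interval -0.13 to 0.14). The array's design treats the *ssa1* and *ssa2* probe sets as specific to 1 gene each, and cross-hybridisation between the paralogues was not tested.

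*hsp90* read -0.28, -0.13 and -0.19 in *rpb1-12XCTD* with DMSO and -0.031, 0.074 and 0.093 with LatA. For *rpb1-12XS2ACTD* the values were -0.18, 0.014 and -0.014, followed by 0.10, 0.053 and 0.087. LatA arrays were above DMSO arrays within each strain, by 0.25 ± 0.074 in *rpb1-12XCTD* (adjusted p = 0.024, limma; 1.19-fold) and 0.14 ± 0.074 in *rpb1-12XS2ACTD* (adjusted p = 0.173, limma). The profile of *hsp90* over the 12 arrays correlated with that of *ssa2* at r = 0.98, the highest of the 36 pairs among the 9 genes. The lowest, 0.091, was that of *hsp90* with *sks2*. These coefficients describe arrays that share treatment and normalisation.

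*hsf1*, the transcription factor, had small differences and tight replicates. The *rpb1-12XCTD* arrays read -0.045, -0.074 and -0.078 with DMSO and 0.045, 0.18 and 0.18 with LatA. Those of *rpb1-12XS2ACTD* read -0.10, -0.093 and -0.081, then 0.22, 0.30 and 0.28. It was the only gene of the 9 whose 4 groups were all apart, in the order *rpb1-12XS2ACTD* with DMSO, *rpb1-12XCTD* with DMSO, *rpb1-12XCTD* with LatA and *rpb1-12XS2ACTD* with LatA, though the first pair was only 0.027 apart in mean. The LatA difference was 0.20 ± 0.062 in *rpb1-12XCTD* (adjusted p = 0.027, limma; 1.15-fold) and 0.36 ± 0.062 in *rpb1-12XS2ACTD* (adjusted p = 0.0018, limma; 1.29-fold), both under the fold threshold.

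Median centring lowered every *rpb1-12XCTD* difference between LatA and DMSO by the same amount and left those of *rpb1-12XS2ACTD* nearly as they were. The 5 calls in *rpb1-12XCTD* stood, at 1.30 for *hsp104*, 1.28 for *hsp78*, 1.27 for *ssa1*, 0.87 for *hsp16* and 0.64 for *hsp9*. The smaller differences shrank in proportion more, to 0.23 for *ssa2* (adjusted p = 0.022), 0.15 for *hsp90* (adjusted p = 0.129) and 0.11 for *hsf1* (adjusted p = 0.263). With no fold threshold 8 of the 9 genes passed in *rpb1-12XCTD*, all but *sks2*, and 5 in *rpb1-12XS2ACTD*, against 35.7% and 33.3% of all probe sets. In a comparison of each gene by its own spread, the t-test that the methods name, none of the 9 genes passed in *rpb1-12XCTD* and 2 passed in *rpb1-12XS2ACTD*, *hsp104* and *hsp78*, while 7 and 6 genes had an unadjusted p under 0.05. The shares of all probe sets by that t-test are not given here, so these counts cannot be set against the whole array.

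**Figure D2:**
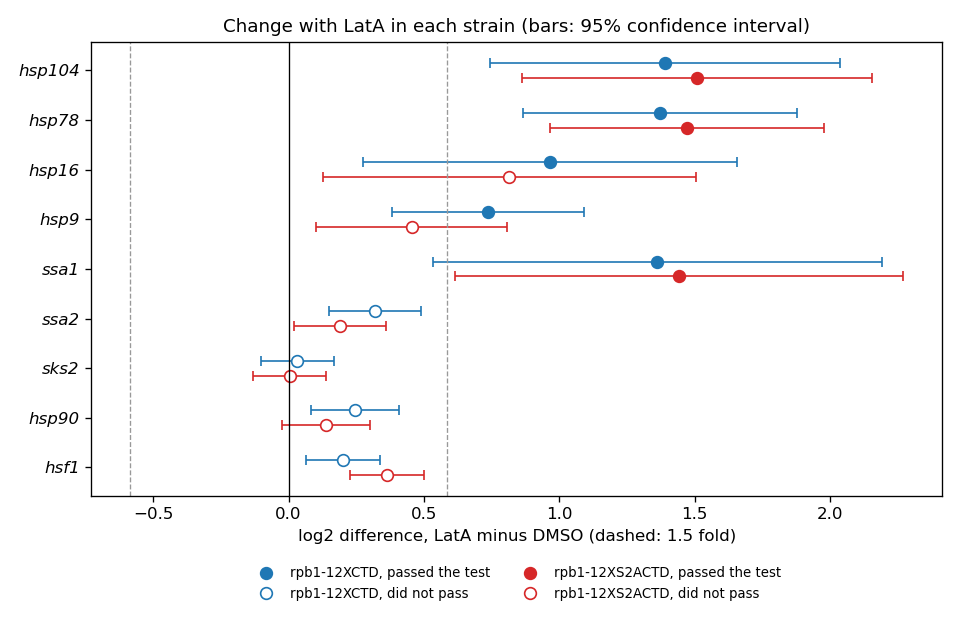
Log2 difference between LatA and DMSO (x axis) for each of the 9 genes in both strains, with 95% intervals from limma and dashed lines at the 1.5-fold threshold. *hsp104*, *hsp78*, *ssa1* and *hsp16* lay past the fold threshold in both strains, *hsp16* without a call in *rpb1-12XS2ACTD*, and the strains' intervals overlapped for every gene.

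In counts of arrays, LatA was above DMSO with no overlap for 7 of the 9 genes in *rpb1-12XCTD*, all but *hsp16* and *sks2*, where 32.3% of all probe sets were so. For *rpb1-12XS2ACTD* the count was 8 of 9, all but *sks2*, against 27.7% of all probe sets. The 2 comparisons share no array, but both were read from values centred over the same 12 arrays.

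Whether the strains differed in their response to LatA was tested as an interaction. No gene of the 9 was called (limma), none had an unadjusted p under 0.05, and 1 of all 4875 probe sets (0.0205%) was called. Subtracting the *rpb1-12XCTD* response from the *rpb1-12XS2ACTD* response gave values from -0.28 for *hsp9* to 0.16 for *hsf1*, with 0.12 for *hsp104*, 0.098 for *hsp78* and 0.080 for *ssa1*. The intervals were wide: -0.79 to 1.03 for *hsp104*, -0.62 to 0.81 for *hsp78*, -1.13 to 0.83 for *hsp16* and -1.09 to 1.25 for *ssa1*. A 2-fold difference between the responses was therefore within the interval for *hsp104*, *hsp16* and *ssa1*. For *sks2*, *hsp90* and *hsf1* the intervals were -0.22 to 0.16, -0.34 to 0.12 and -0.032 to 0.35.

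Between the strains with DMSO, none of the 9 genes was called (limma), in a comparison that shares its arrays with those above. By the same rule 0.862% of all probe sets were called. An unadjusted p under 0.05 was reached by 1 of the 9, and the methods' t-test called 0. Shares of all probe sets at an unadjusted p, or by that t-test, are not given here for any comparison. The 2 largest differences, *rpb1-12XS2ACTD* over *rpb1-12XCTD*, were those of *hsp16*, 0.85 (95% interval 0.16 to 1.54, adjusted p = 0.228), and *ssa1*, 0.82 (interval -0.0059 to 1.65, adjusted p = 0.299). For both genes the arrays of the 2 strains overlapped. For none of the 9 did the *rpb1-12XS2ACTD* arrays lie wholly above the others, as they did for 8.35% of all probe sets, and for *hsf1* alone they lay wholly below, as for 1.19%. *hsp104* differed by 0.36 and *hsp78* by 0.34, and the other 5 genes by -0.027 to 0.14. After quantile normalisation the difference was 0.033 for *hsp104*, 0.13 for *hsp78*, 0.51 for *hsp16* and 0.50 for *ssa1*. *rpb1-12XCTD* DMSO replicate 3, the highest of its group for 5 of the 9 genes, also had a higher median over all probe sets (0.070) than replicates 1 and 2 (-0.16 and -0.11). Without it the *hsp16* difference was 1.20 and passed the test (adjusted p = 0.029, limma).

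With LatA the *rpb1-12XS2ACTD* arrays were above the *rpb1-12XCTD* arrays with no overlap for 5 of the 9 genes, *hsp104*, *hsp78*, *hsp16*, *ssa1* and *hsf1*, as were those of 15.6% of all probe sets. None of the 9 was called (limma), against 2.89% of all probe sets, with 2 at an unadjusted p under 0.05 and 0 called by the methods' t-test. The differences were 0.90 for *ssa1* (interval 0.074 to 1.73, adjusted p = 0.180), 0.70 for *hsp16* (0.012 to 1.39, adjusted p = 0.210), 0.48 for *hsp104*, 0.44 for *hsp78* and 0.13 for *hsf1*. Fitted with these 2 groups alone, *ssa1* was called (adjusted p = 0.022, limma), and *hsp104* had an adjusted p of 0.046 with a fold change of 1.39. The share of all probe sets called in this fit, or in the one that follows, is not given here. Over all probe sets, same-numbered arrays of these 2 groups deviated together. For *ssa1* they did not, since replicate 1 was the lowest *rpb1-12XCTD* array (-0.34) and the highest *rpb1-12XS2ACTD* array (1.15). The replicate number was added to the fit of these 2 groups as a block, a setting chosen after seeing the data. There *ssa1* was again called (adjusted p = 0.0224, limma).

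**Figure D3:**
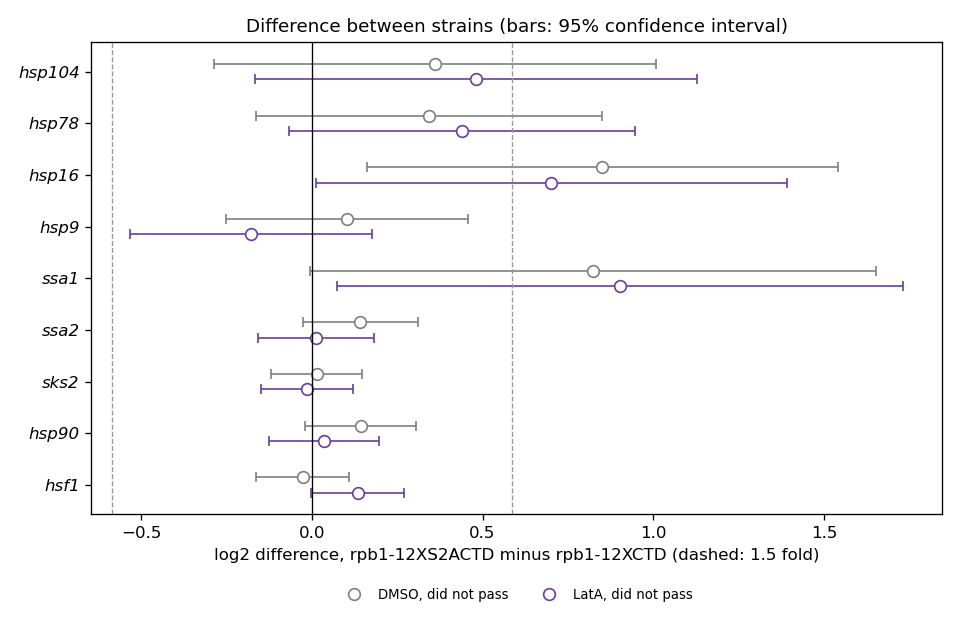
Log2 difference of *rpb1-12XS2ACTD* over *rpb1-12XCTD* (x axis) with DMSO and with LatA for the 9 genes, with 95% intervals from limma and dashed lines at the 1.5-fold threshold. *hsp16* and *ssa1* had the largest differences under both conditions, and no gene passed the test.

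Replicate 1 of *rpb1-12XCTD* with LatA bore on these last values. It was the lowest of its 3 arrays for 8 of the 9 genes and the highest for none, whereas its median over all probe sets, 0.024, lay with those of replicates 2 and 3 (0.036 and 0.022). Without that array the strain difference with LatA was 0.64 for *ssa1*, 0.41 for *hsp16*, 0.31 for *hsp104* and 0.21 for *hsp78* (adjusted p = 0.463, 0.556, 0.703 and 0.703, limma). Replicate 1 of *rpb1-12XS2ACTD* with LatA was the highest of its 3 arrays for 7 of the 9 genes. Over all omissions of 1 array the strain difference ran from 0.64 to 1.09 for *ssa1* and from 0.41 to 0.89 for *hsp16*. For *hsp104* it ran from 0.31 to 0.59 and for *hsp78* from 0.21 to 0.60, and none of these was called. The part of *rpb1-12XCTD* LatA replicate 1 in the strain difference beyond these values was not tested.

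The partners of these proteins were read from a list of 38 further chaperone genes on the array, grouped by family. In *rpb1-12XCTD* 5 of the 38 rose and 1 fell with LatA, and likewise in *rpb1-12XS2ACTD*. In *rpb1-12XCTD* these counts lie near the shares over all probe sets, 10.6% up and 2.58% down. In *rpb1-12XS2ACTD* those shares were 6.13% up and 5.37% down. There 5 of 38 up lay above the share and 1 of 38 down below it, which was not tested. Their median difference was 0.18 in *rpb1-12XCTD* and -0.025 in *rpb1-12XS2ACTD*, 0.080 above and 0.016 below the medians over all probe sets. None was called in either comparison of the strains or in the interaction (limma), where 5, 6 and 3 had an unadjusted p under 0.05 with DMSO, with LatA and for the interaction, and the methods' t-test called 0 in each. Shares of all probe sets by the unadjusted p or that t-test are not given here, so these counts cannot be set against the whole array.

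Among 13 J proteins, which start the Hsp70 cycle, 1 rose and 1 fell in each strain. *psi1*, a cytosolic J protein, read -0.55, -0.91 and -0.44 in *rpb1-12XCTD* with DMSO and 0.035, 0.48 and 0.59 with LatA, a difference of 1.00 ± 0.19 (adjusted p = 0.0021, limma). In *rpb1-12XS2ACTD* the difference was 1.17 (adjusted p = 0.0012, limma). Over the 12 arrays *psi1* was the probe set most correlated with *hsp78* (r = 0.99) and the third with *hsp104* (r = 0.98). *erj5*, a J protein of the endoplasmic reticulum, went the other way, by -1.08 in *rpb1-12XCTD* (adjusted p = 1.9e-04, limma) and -0.96 in *rpb1-12XS2ACTD* (adjusted p = 5.3e-04, limma).

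Of 4 nucleotide exchange factors, which release ADP from Hsp70, *fes1* rose by 0.91 in both strains (adjusted p = 0.0054 and 0.0065, limma) and the other 3 were not called. *mge1* was lower with LatA, by -0.27 in *rpb1-12XCTD* and -0.48 in *rpb1-12XS2ACTD* (adjusted p = 0.022 and 0.0014, limma). So was *bag102*, by -0.28 and -0.41 (adjusted p = 0.085 and 0.020, limma), and both genes stayed under the fold threshold. *bag101* differed by 0.0034 and 0.094. Of 4 Hsp90 co-chaperones, 3 rose in *rpb1-12XCTD* and 2 in *rpb1-12XS2ACTD*. *cdc37*, which brings kinases to Hsp90, rose by 0.78 and 0.65 in *rpb1-12XCTD* and *rpb1-12XS2ACTD*. *aha1*, which speeds the Hsp90 ATPase, rose by 0.73 and 0.61. *sti1*, which links Hsp70 and Hsp90, rose by 0.71 in *rpb1-12XCTD* and was not called in *rpb1-12XS2ACTD*. *sti1* in that strain (0.51) and *wos2* in both (0.38 and 0.35) stayed under the fold threshold, as did *hsp90* itself at 0.25 and 0.14, and no test set the co-chaperones against *hsp90*. In *rpb1-12XCTD* the *aha1* and *sti1* calls ended after quantile normalisation, at 0.56 and 0.50, and in *rpb1-12XS2ACTD* the *aha1* call ended without DMSO replicate 1 or LatA replicate 1 (0.46 and 0.58) and the *cdc37* call without DMSO replicate 1 (0.58).

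The remaining small heat shock protein, *hsp20*, rose in *rpb1-12XS2ACTD* by 0.64 (adjusted p = 0.012, limma), but by 0.43 without DMSO replicate 1, which is under the fold threshold. With LatA it was 0.59 higher in *rpb1-12XS2ACTD* than in *rpb1-12XCTD* (adjusted p = 0.054, limma), and passed the test after median centring or quantile normalisation and with the 2 groups alone. That is a fold change of 1.51, barely past the threshold. The *rpb1-12XCTD* arrays with LatA read -0.32, 0.0052 and 0.058, so replicate 1 was again the lowest, and its part in the difference was not tested.

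The other families held no called gene. Of 5 further Hsp70 and Hsp110 genes, which include the chaperones of mitochondria and endoplasmic reticulum, the largest difference was that of *lsh1* with LatA in *rpb1-12XCTD*, 0.20. Both mitochondrial chaperonin genes stayed under the fold threshold, *mcp60* at 0.34 in *rpb1-12XCTD* (adjusted p = 0.0042, limma), as did the lectin chaperone *cnx1* at 0.25. The 8 subunits of the cytosolic chaperonin CCT, which folds actin and tubulin, differed between LatA and DMSO by -0.0069 to 0.094 in *rpb1-12XCTD* and by -0.29 to -0.044 in *rpb1-12XS2ACTD*. Their largest difference was the strain difference of *cct7* with LatA, -0.34 (adjusted p = 0.062, limma).

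**Figure D4:**
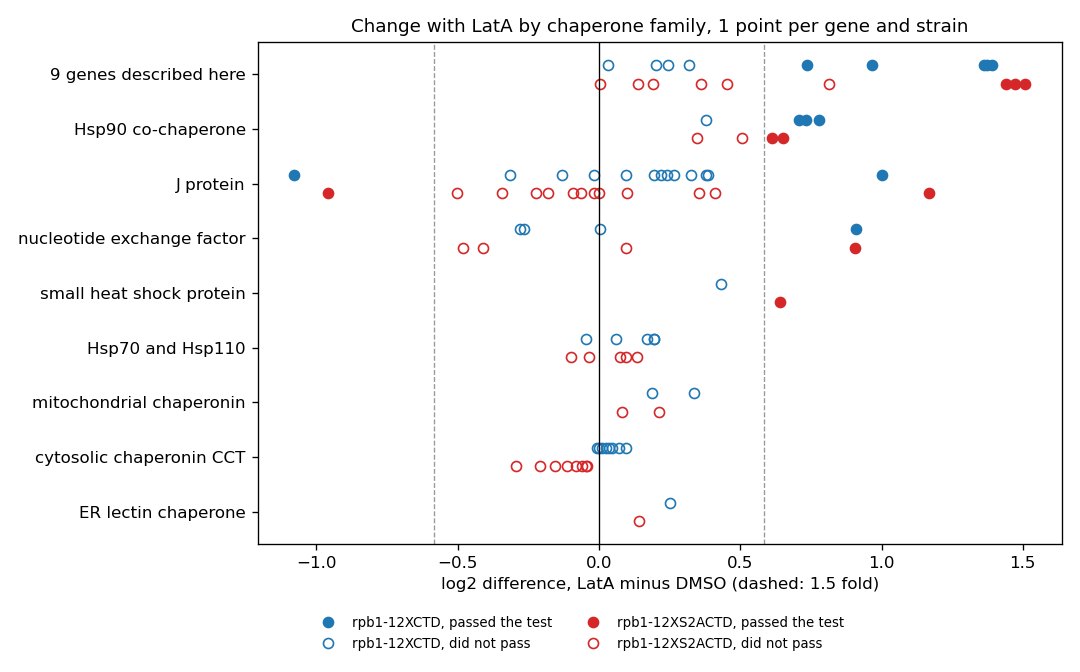
Log2 difference between LatA and DMSO for the 9 named genes and the 38 further chaperone genes in both strains, by family (y axis), 1 point a gene, filled where the gene passed the test. The disaggregases *hsp104* and *hsp78* lie highest, the CCT subunits lie near 0, and *erj5* is the lowest point in each strain.

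The 3 genes with the widest range of group means were *ssa1* (2.27), *hsp104* (1.87) and *hsp78* (1.81). The probe sets closest to *ssa1* over the 12 arrays were *rhp1602*, *SPAC9E9.15*, *mad1*, *oca2* and *fes1* (r = 0.97 to 0.96). For *hsp104* they were *slt1*, *SPAC16E8.13*, *psi1*, *SPAC3H8.04* and *rnf10* (0.98 to 0.97). *psi1*, *mbf1*, *opi10*, *glo1* and *mdj1*, the last a mitochondrial J protein, stood closest to *hsp78* (0.99 to 0.98). Each coefficient is over 12 arrays that fall into treated and untreated groups, so it describes a shared treatment difference as much as shared replicate variation.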

How the data were processed

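RNA from 12 cultures was hybridised to 1-colour Affymetrix Yeast Genome 2.0 arrays. The authors processed the scans by RMA (named in the submitters' processing notes) and deposited log2 values, which the values themselves show to be centred at each probe set's median over the 12 arrays, so no level, background or detection call was kept. Genes were named through the study's probe list, then the array annotation and RefSeq gene tables, and 954 of 4875 probe sets had no single name. Limma 3.58.1 in R 4.3.3 fitted the 4 group means (8 residual degrees of freedom) to the deposited values, with two-sided tests and Benjamini-Hochberg adjustment over all probe sets. Calls were made at an adjusted p below 0.05 where the groups differed by more than 1.5-fold. The fit was tested on simulated data. All 9 genes were named, as were, by family, up to 4 called genes of the further list (otherwise the 1 with the largest difference) and the 5 probe sets most correlated with each of the 3 widest-ranging genes. A few genes without a call, such as *wos2*, *mge1* and *bag102*, were named besides. The 9 genes and the lists were chosen with earlier results of these data known. Results were recomputed with a replicate block, from the 2 compared groups alone, by the methods' t-test, with array weights, median centring, quantile normalisation, no fold threshold, omission of 59 probe sets designed to match several genes, and leaving out each array. The number of arrays, 3 a group, limits the precision. Between the LatA groups of the strains, which no label pairs, deviations of same-numbered arrays over all probe sets correlated at 0.20 to 0.34 in all 3 pairs. A fit of these groups with that block was therefore added after seeing the data.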

Additional observations from a re-analysis of the deposited data

How the results depend on the processing

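With no fold threshold, the 5 calls with LatA in *rpb1-12XCTD* became 8 and the 3 in *rpb1-12XS2ACTD* became 5. The 6 calls among the 38 further chaperone genes became 12 and 16, in either direction. By that rule 35.7% of all probe sets passed in *rpb1-12XCTD* and 33.3% in *rpb1-12XS2ACTD*. The methods' t-test called 0 of the 9 and 0 of the further genes in *rpb1-12XCTD*. Quantile normalisation left 3 of the 5. Leaving out 1 array gave 3 to 5 and 3 to 4 calls among the 9 genes in *rpb1-12XCTD* and *rpb1-12XS2ACTD*, and 6 to 6 and 3 to 7 among the further genes. Between strains, leaving out 1 array gave 0 to 1 calls among the 9 genes and 0 to 1 among the further genes with DMSO, and 0 to 1 among the further genes with LatA. With LatA, the 2 groups alone called 1 of the 9 (*ssa1*) and 1 further gene (*hsp20*), and median centring and quantile normalisation each called 1 further gene (*hsp20*). Array weights ended the calls of *hsp20* (0.50) and *aha1* (0.46) in *rpb1-12XS2ACTD*. Shares of all probe sets under the other settings in this section are not given.

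Only differences that passed no test changed sign. Without LatA between strains these were *hsp9* (-0.043 by quantile normalisation, -0.059 to 0.22 leaving out 1 array) and *sks2* (-0.051 by median centring, -0.049 by quantile normalisation, -0.024 to 0.045). With LatA they were *ssa2* (-0.0071 with array weights, -0.017 to 0.032), *sks2* (0.014 by median centring, 0.024 by quantile normalisation, -0.030 to 0.00051) and *hsp90* (-0.0032 to 0.059). The LatA difference of *sks2* was -0.061 by median centring, -0.071 by quantile normalisation and -0.0047 to 0.064 in *rpb1-12XCTD*, and -0.014 to 0.020 in *rpb1-12XS2ACTD*. The interaction was -0.40 with array weights and -0.19 to 0.39 for *hsp104*, -0.33 and -0.14 to 0.35 for *hsp78*, and -0.44 and -0.26 to 0.46 for *ssa1*. By quantile normalisation it was 0.31 for *hsp16* (-0.50 to 0.11 leaving out 1 array), 0.018 for *ssa2*, 0.035 for *hsp90* and 0.073 for *sks2*, and for *sks2* 0.065 by median centring and -0.059 to 0.0095 leaving out 1 array. The cause was not tested.

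Over all groups and all probe sets, 7 of 18 pairs of same-numbered arrays had deviations correlated above 0.1 (-0.40 to 0.34). The share was 3 of 3 between the LatA groups, 2 of 3 between treatments in *rpb1-12XS2ACTD* and 0 of 3 in each of the other 2 comparisons, where samples shared only a number. A fit of the 2 LatA groups with the replicate block called 1 of the 9 genes (*ssa1*) and 1 further gene (*hsp20*). With the replicate number as a block in the fit of all 4 groups, the counts among the 9 genes stayed at 5 in *rpb1-12XCTD* and 3 in *rpb1-12XS2ACTD*, at 6 and 6 among the further genes, and at 0 elsewhere.

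A filter on dim probe sets and another background correction were not run, since centring removed the levels, and the interaction needs all 4 groups. With 3 arrays a group, strain differences of the widest-ranging genes had 95% intervals over 1 log2 unit wide.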
